A study of Mus musculus and Homo sapiens with 18 samples.

Results

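The 10 imprinted growth genes described here are *H19*, *Igf2*, *Meg3*, *Dlk1*, *Peg10*, *Cdkn1c*, *Plagl1*, *Grb10*, *Mest* and *Ndn*. They were taken by symbol from RNA-seq count tables of 3 systems in which *Qk* (human *QKI*), the gene of an RNA-binding protein, had been deleted. All 10 had a row among the 46882 genes of the lens table, the 54838 of the NLPC table and the 60880 of the HLE-B3 table (upper-case symbols). After a filter on low counts, the lens left 9 to be tested, the NLPCs 7 and HLE-B3 cells 6, and 6 could be tested in every system. Each group held 3 libraries.

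Lenses came from C57BL/6 mice at P17 to P19. Control (Ctrl) mice were *Nestin-CreERT2; QkL/+* and deleted mice (*Qk*-iCKO) *Nestin-CreERT2; QkL/L* littermates, with *loxP* sites around exon 2 of *Qk*, so that by these labels both groups carried the Cre, under the *Nestin* promoter, and at least one floxed allele. The study's methods name a wider set of control littermates, which also holds Cre carriers with no floxed allele and *QkL/L* mice without Cre, and the genotypes used here are those of the labels. Both had been given 20 µL of tamoxifen at 10 mg/mL on P7 and P8. NLPCs are lens progenitor-like cells grown from mouse neural stem cells of newborn brain, which the study's methods give as from *Nestin-CreERT2; QkL/L* mice. Differentiation used 100 ng/mL Noggin for 6 days, then bFGF at 100 ng/mL with BMP4 and BMP7 at 20 ng/mL each for 12 days. The deletion had been induced with 100 nM 4-hydroxytamoxifen in the stem cells. No such treatment is given for the WT NLPCs in the sources used here, so drug and deletion cannot be told apart there. HLE-B3 is an immortalized human lens epithelial line, grown in 20% serum, and its *QKI* KO cells had been made with a lentiviral CRISPR vector and puromycin selection and were compared with WT cells. The study states in general terms that its animal and cell experiments had independent biological replicates, but no label ties the sequenced libraries of a cell system to separate cultures. If they were not separate, p-values in the cell systems measure the spread between these libraries, which may be technical.

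An imprinted gene is expressed mainly from the copy inherited from one parent. The parental copies are marked by DNA methylation laid down in the germ line, and the genes lie in clusters in which a long non-coding RNA often accompanies protein-coding genes of the opposite parental origin, as *H19* accompanies *Igf2* and *Meg3* accompanies *Dlk1*. Many imprinted genes act on growth of the embryo: Igf2 is a fetal growth factor, Grb10 dampens insulin and IGF receptor signalling, p57 (the protein of *Cdkn1c*) stops the cell cycle, and in the lens *Cdkn1c* is known to be switched on as epithelial cells leave the cycle and become fibres. Plagl1 is a zinc finger transcription factor, Peg10 derives from a retrotransposon and is needed in the placenta, Mest resembles hydrolases, Dlk1 is a membrane protein related to Notch ligands, and necdin (*Ndn*) restrains growth in neurons. The libraries count RNA from both parental copies together, and no value below speaks to which copy was read. In bulk samples, fewer cells of a type and less RNA per cell cannot be told apart.

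Total counts ran from 10319320 to 16425331 per lens library, from 28154202 to 68243360 per NLPC library and from 69190864 to 81384471 per HLE-B3 library. Values below are normalized counts, that is counts divided by the library's effective size (TMM) and scaled to the mean effective size of its table, and changes are log2 fold changes of deletion over control with their standard errors (SE). *Qk*-iCKO lens 1 stood apart from the other lens libraries, with a TMM factor of 1.48 against 0.888 to 0.962 and 56.3% of its counts on crystallins against 64.7 to 66.9%. *Qk* itself was at a log2 fold change of −0.31 in the lens (adjusted p = 0.200) and *QKI* at −1.34 in HLE-B3 cells (adjusted p = 1.85e-11, both edgeR). *Qk* was not lower in the NLPC libraries labelled *Qk*-/- (0.41, adjusted p = 0.0270 from edgeR). These are RNA counts over the whole gene, while the *loxP* sites flank a single exon, so they do not measure loss of the protein. By staining, the study reports Qki protein abolished in the treated neural stem cells and NLPCs. It also reports a nuclear Qki isoform nearly absent from reporter-marked lens cells of *Qk*-iCKO mice. Directions in the NLPCs are those of the labels, and the cause of the higher *Qk* counts was not tested. Summed counts of 4 Y-linked genes in the lens libraries were 0, 0 and 3 in Ctrl and 1, 1051 and 930 in *Qk*-iCKO, and the part of sex in any lens result was not tested.

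Starts of the genes that the lens and NLPC results turn on are shown here, from the RefSeq promoter table of GRCm38.p6, which runs from 250 bases before to 50 bases after an annotated start. It held 14 windows for 7 of the 10 members and none for *H19*, *Peg10* and *Cdkn1c*. A single window each is printed for *Meg3*, *Plagl1* and *Mest*, each called in a mouse system. That of *Rian*, a non-coding RNA of the *Meg3* cluster called in the lens with it, is added. *Mirg*, of the same cluster, was also called in the lens, and its window is described below without its letters. Capitals mark the letters ACTAAC, the DNA form of a core that Qki protein binds in RNA.
Meg3, chr12:109540746-109541045, plus strand: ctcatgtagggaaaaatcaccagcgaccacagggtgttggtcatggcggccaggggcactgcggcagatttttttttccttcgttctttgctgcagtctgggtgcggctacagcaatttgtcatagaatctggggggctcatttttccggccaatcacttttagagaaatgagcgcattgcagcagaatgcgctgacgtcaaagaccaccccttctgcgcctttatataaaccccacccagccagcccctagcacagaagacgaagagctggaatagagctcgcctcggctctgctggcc
Rian, chr12:109603695-109603994, plus strand: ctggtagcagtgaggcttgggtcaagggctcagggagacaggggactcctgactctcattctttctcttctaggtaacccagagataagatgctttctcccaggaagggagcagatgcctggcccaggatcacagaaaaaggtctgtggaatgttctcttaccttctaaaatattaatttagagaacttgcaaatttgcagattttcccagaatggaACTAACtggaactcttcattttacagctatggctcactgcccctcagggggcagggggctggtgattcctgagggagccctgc
Plagl1, chr10:13090582-13090881, plus strand: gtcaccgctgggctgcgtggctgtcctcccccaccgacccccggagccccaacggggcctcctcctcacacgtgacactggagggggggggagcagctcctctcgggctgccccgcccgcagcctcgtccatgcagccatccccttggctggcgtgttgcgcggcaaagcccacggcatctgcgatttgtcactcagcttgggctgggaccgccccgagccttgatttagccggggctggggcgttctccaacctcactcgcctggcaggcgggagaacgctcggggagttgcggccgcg
Mest, chr6:30737800-30738099, plus strand: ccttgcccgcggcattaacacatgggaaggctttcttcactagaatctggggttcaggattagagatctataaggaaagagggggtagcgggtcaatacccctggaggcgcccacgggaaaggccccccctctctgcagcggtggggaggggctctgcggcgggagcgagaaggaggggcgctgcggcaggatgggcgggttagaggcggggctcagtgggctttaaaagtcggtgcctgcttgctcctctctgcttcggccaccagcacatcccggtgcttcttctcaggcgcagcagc

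Searched on both strands, ACTAAC was found once in the *Rian* window, before the annotated start, and 0 times in the *Mirg* window. It was in 0 of the 14 windows of the members, where 6.09% of all 32851 promoter windows of the table hold it. GGGGCCCC, the core bound by the Plagl1 protein, which reads the same on both strands, was in 0 of the 14 windows and in 1.08% of all. The printed windows of *Plagl1*, *Mest* and *Meg3* held 26, 17 and 13 CpG dinucleotides, that of *Rian* 0 and that of *Mirg* 10, against a median of 7 over all windows. The other windows of *Mest* held 8 and 17, and the other window of *Meg3* held 1. These are descriptions of the letters in these windows, and binding of Qki to them was not tested.

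*Meg3*, *Mest*, *H19* and *Igf2* carry microRNAs in their loci, and the mature sequences are given with the seed (bases 2 to 8) in capitals because the host RNAs are those whose counts are compared below.
miR-770-5p, in Meg3: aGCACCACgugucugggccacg
miR-770-3p, in Meg3: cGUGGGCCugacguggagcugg
miR-335-5p, in Mest: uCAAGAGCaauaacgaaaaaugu
miR-335-3p, in Mest: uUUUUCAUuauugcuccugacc
miR-675-5p, in H19: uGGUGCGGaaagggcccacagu
miR-675-3p, in H19: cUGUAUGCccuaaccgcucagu
miR-483-5p, in Igf2: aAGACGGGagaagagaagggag
miR-483-3p, in Igf2: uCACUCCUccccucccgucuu

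No seed was shared among these 8 sequences. Both mouse tables listed *Mir770*, *Mir675* and *Mir483* at 0 in all libraries. *Mir335* had 0 to 3 counts in the lens libraries and 1 to 19 in the NLPC libraries, so the hosts stand for these loci in what follows.

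The members sat at different levels in the 3 systems. Per kilobase of merged exon, the control level in the lens was highest for *Cdkn1c*, at 87.4 CPM per kilobase (range over the 3 libraries 73.6 to 110). The lengths merge the exons of all annotated transcripts. They may come from another annotation than the counts, so orders of genes are approximate, and genes with many transcripts come out lower. *Ndn* followed at 22.3 (21.9 to 22.8), *H19* at 9.19 (4.55 to 14.6) and *Mest* at 5.27 (4.40 to 5.86), and the ranges of *H19* and *Mest* overlapped. *Igf2* was at 1.25 (0.972 to 1.73), above *Meg3* at 0.645 (0.476 to 0.784) and *Grb10* at 0.537 (0.446 to 0.635), which overlapped. *Peg10* (0.172), *Plagl1* (0.0750) and *Dlk1* (0.00809) were lowest. In the NLPCs the order began with *Peg10* at 13.4 (12.04 to 14.2) and *Mest* at 11.8 (10.7 to 12.7), which overlapped, and *Cdkn1c* was near the floor, at 0.00956. In HLE-B3 cells *PEG10* was highest at 17.6 (17.2 to 18.3), then *MEST* at 14.4 (12.8 to 15.4), with *MEG3* at 8.30 (7.77 to 8.67) and *GRB10* at 8.22 (7.18 to 8.83) indistinguishable. *PLAGL1* (4.05, 3.65 to 4.52) and *H19* (3.50, 3.03 to 4.01) overlapped as well. The tables were normalized separately, so these levels are set side by side and were not tested across tables.

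**Figure D1:**
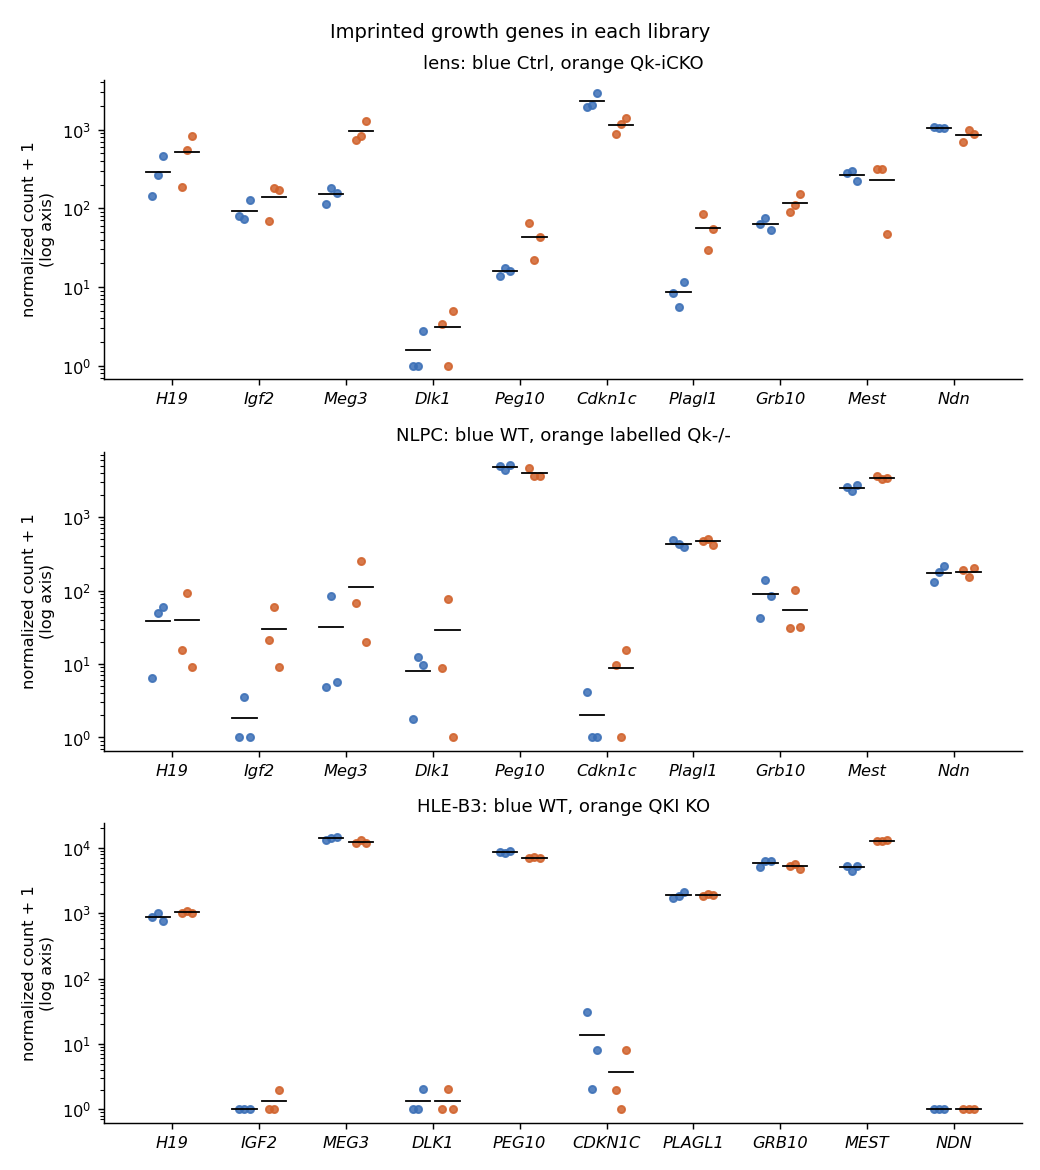
Normalized count plus 1 (log axis) of each of the 10 genes in every library of the lens (top), the NLPCs (middle) and HLE-B3 cells (bottom); points are libraries, black bars are group means, blue is control and orange deletion. In the lens the 3 orange points of *Meg3* and *Plagl1* lie above all blue points and those of *Cdkn1c* below, while in HLE-B3 cells the points of *MEST* separate most.

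In *Qk*-iCKO lenses, the non-coding RNA *Meg3* and the transcription factor gene *Plagl1* were higher and the cell cycle inhibitor *Cdkn1c* was lower than in Ctrl lenses. These 3 were the members called at an adjusted p under 0.05 among the 9 tested (edgeR's quasi-likelihood test, adjusted over the 12201 genes tested by Benjamini and Hochberg). Of all genes tested, 8.38% were called higher and 3.88% lower, beside 2 and 1 of the 9 members. The median log2 fold change of the 9 was 0.84, beside 0.0064 over all genes tested.

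*Meg3* lies on the plus strand of chromosome 12, from 109541001 to 109571726 of GRCm38. Its normalized counts were 111, 183 and 157 in the Ctrl lenses and 729, 837 and 1291 in the *Qk*-iCKO lenses. Every deleted lens lay above every control, and the group means were 150.2 ± 36.3 (SD, n = 3) and 953 ± 298 (SD, n = 3), 6.34 times apart. The log2 fold change was 2.66 (SE 0.28, adjusted p = 0.00169 from edgeR), and leaving out any single library kept the adjusted p within 0.00206 to 0.0146.

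*Plagl1*, on chromosome 10 from 13060504 to 13131694 of GRCm38, was near the floor in Ctrl lenses, with normalized counts of 7.46, 4.59 and 10.6. In *Qk*-iCKO lenses it reached 82.9, 28.6 and 53.3, again with no overlap, and the means were 7.55 ± 3.01 and 54.9 ± 27.2 (SD, n = 3 each). The deleted lenses differed among themselves by more than the controls did. The log2 fold change was 2.85 (SE 0.49, adjusted p = 0.0112 from edgeR). Without Ctrl lens 1 or Ctrl lens 2 the adjusted p was 0.0595 and 0.0505, and the call was lost.

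*Cdkn1c*, on the minus strand of chromosome 7 from 143458339 to 143461050 of GRCm38, was the member with the most counts per kilobase in the lens. Its normalized counts were 1932, 2065 and 2882 in Ctrl and 885, 1189 and 1383 in *Qk*-iCKO lenses. All 3 deleted lenses were below all 3 controls, and the means went from 2293 ± 515 to 1153 ± 251 (SD, n = 3 each), 1.99 times lower. The log2 fold change was −0.99 (SE 0.23, adjusted p = 0.0322 from edgeR). This call was the weakest of the 3: scaling to total counts alone gave −0.75 (adjusted p = 0.0542), while moving the median of all genes to 0.29, and leaving out any Ctrl lens or *Qk*-iCKO lens 2 gave adjusted p-values from 0.0725 to 0.112.

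*Peg10* and *Grb10* had higher values in every *Qk*-iCKO lens than in any Ctrl lens without passing the threshold in this fit. The normalized counts of *Peg10* were 12.8, 16.5 and 15.01 against 63.9, 21.2 and 41.6 (log2 fold change 1.52, SE 0.43, adjusted p = 0.0589). Those of *Grb10* were 61.8, 74.3 and 52.1 against 87.6, 109.6 and 152.0 (0.88, SE 0.25, adjusted p = 0.0623, both edgeR). With every gene of at least 1 count kept in the fit, both had adjusted p-values under 0.05, at 0.0167 for *Peg10* and 0.0240 for *Grb10*. *Peg10* also passed with DESeq2 (adjusted p = 0.0387), which called 4 members in the lens. It passed with at least 10 counts required in every library (adjusted p = 0.0490 from edgeR), where *Plagl1* was not tested. *Grb10* passed with neither (adjusted p = 0.0559 and 0.0597). Without *Qk*-iCKO lens 2 the adjusted p of *Peg10* was 0.0222, and without *Qk*-iCKO lens 1 that of *Grb10* was 0.0327 (both edgeR).

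The values of *H19* and *Igf2*, which share an imprinted domain on distal chromosome 7, overlapped between the groups. *H19* had normalized counts of 144, 266 and 463 in Ctrl and 188, 548 and 833 in *Qk*-iCKO lenses, and its log2 fold change was 0.84 (SE 0.57, adjusted p = 0.382). Libraries with the same replicate number varied together in the lens, and a fit that blocked on the replicate number gave *H19* a change of 0.77 with an adjusted p of 0.0249, past the threshold. *Igf2* had 77.8, 71.5 and 127 against 67.9, 181 and 171 (0.59, SE 0.40, adjusted p = 0.375, and 0.255 with the block, edgeR throughout). *Qk*-iCKO lens 1 had the lowest value of its group for both genes.

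The remaining members of the lens gave no call. *Ndn* was at 1085, 1048 and 1041 in Ctrl and 690.0, 984 and 889 in *Qk*-iCKO lenses (−0.31, SE 0.16, adjusted p = 0.261 from edgeR). *Mest* had 281, 297 and 223 in Ctrl and 313, 319 and 45.5 in *Qk*-iCKO lenses. A single library, *Qk*-iCKO lens 3, was far below the other 5, and the log2 fold change was −0.23 (SE 0.58, adjusted p = 0.831) with it and 0.24 (adjusted p = 0.413, both edgeR) without it. *Dlk1* had raw counts of 0, 0 and 2 in Ctrl and 3, 0 and 3 in *Qk*-iCKO lenses and was not tested.

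**Figure D2:**
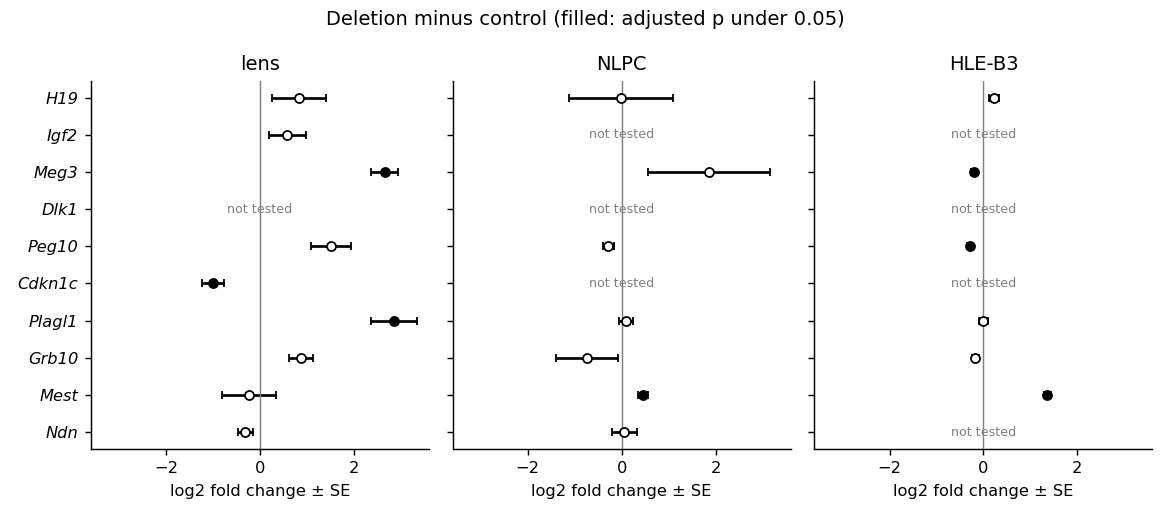
Log2 fold change of deletion over control (x axis, log2 scale, bars ± 1 SE) of each gene in each system; filled points have an adjusted p under 0.05, and genes below the filter are marked. The called changes are *Meg3*, *Plagl1* and *Cdkn1c* in the lens, *Mest* for the NLPCs, and *MEG3*, *PEG10* and *MEST* for HLE-B3, where the bars are shortest.

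The non-coding RNAs of the *Dlk1*-*Dio3* cluster were higher together in *Qk*-iCKO lenses. *Rian*, a host of small nucleolar RNAs, had normalized counts of 96.0, 198 and 217 in Ctrl and 569, 793 and 1428 in *Qk*-iCKO lenses (2.44, SE 0.42, adjusted p = 0.0111 from edgeR). *Mirg*, a host of microRNAs, had 3.20, 9.17 and 13.2 against 74.2, 113 and 203 (3.87, SE 0.53, adjusted p = 0.00512 from edgeR). As with *Meg3*, no deleted lens overlapped a control. In both RNAs *Qk*-iCKO lens 1 was the lowest and lens 3 the highest of the group, as it was for *Meg3*. The protein-coding genes of the cluster gave no call. *Dlk1* and *Rtl1* stayed at 0 to 7 raw counts, and *Dio3*, a deiodinase, had 14.9, 11.01 and 0 in Ctrl and 86.8, 82.2 and 3.90 in *Qk*-iCKO lenses (adjusted p = 0.158 from edgeR).

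**Figure D3:**
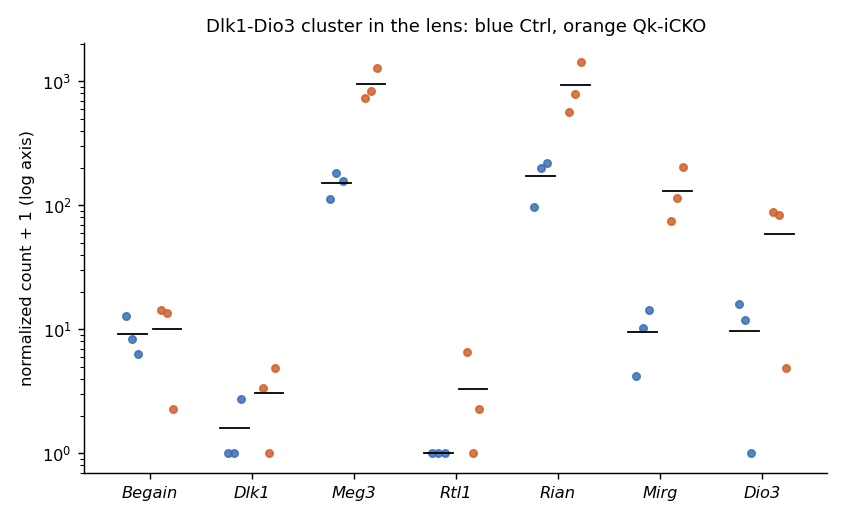
Normalized count plus 1 (log axis) of 7 genes of the *Dlk1*-*Dio3* cluster in each lens library, in order along the chromosome, with group means as bars; blue is Ctrl and orange *Qk*-iCKO. *Meg3*, *Rian* and *Mirg* separate the groups in every library, and *Dlk1* and *Rtl1* lie at the floor in both.

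In the lens, 4 of the 18 tested imprinted neighbours of the members were called higher and 1 lower, with a median log2 fold change of 0.30. Beside *Rian* and *Mirg*, *Cd81*, a tetraspanin near *Cdkn1c*, was higher (0.92, SE 0.20, adjusted p = 0.0242). *Nap1l4*, a nucleosome assembly protein gene near *Cdkn1c*, was lower, at 3007 ± 668 in *Qk*-iCKO against 6620 ± 183 in Ctrl (SD, n = 3 each; −1.14, adjusted p = 0.0126, both edgeR). *Kcnq1ot1*, the non-coding RNA of that cluster, had means of 163 ± 32.1 for Ctrl and 162 ± 38.2 for *Qk*-iCKO (SD, n = 3 each). The log2 ratio of *Cdkn1c* to *Kcnq1ot1*, which needs no scaling between libraries, was 3.52, 3.42 and 4.48 in Ctrl and 2.81, 2.56 and 3.12 in *Qk*-iCKO lenses (difference −0.98, p = 0.10 by the two-sided exact permutation test, which cannot go lower with 3 against 3). That of *H19* to *Igf2* was 1.54 ± 0.57 and 1.78 ± 0.44 (SD, n = 3 each; exact permutation test, p = 0.70), and those of *Ndn* to *Snrpn*, *Mest* to *Copg2* and *Peg10* to *Sgce* overlapped between the groups as well (exact permutation tests, p from 0.40 to 1).

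Among 19 tested genes of the list of other imprinted clusters, 5 were higher and 0 lower in *Qk*-iCKO lenses (median log2 fold change 0.28), and 4 and 1 with the replicate block. The shares over all lens genes tested were 8.38% and 3.88%. *Gatm*, an enzyme of creatine synthesis, went from 7.33 ± 4.65 to 143 ± 68.1 (4.22, adjusted p = 0.00309), *Nnat*, a membrane proteolipid gene, from 642 ± 55.4 to 1584 ± 494 (1.30, adjusted p = 0.0155), and *Sfmbt2*, a Polycomb group gene, from 7.58 ± 0.322 to 19.6 ± 2.45 (SD, n = 3 each; 1.35, adjusted p = 0.0306, edgeR throughout). *Igf2r*, whose product takes up and clears Igf2, was among them and belongs to the IGF list too. Its normalized counts were 898, 768 and 757 in Ctrl and 1677, 1732 and 1862 in *Qk*-iCKO lenses (1.12, SE 0.14, adjusted p = 0.00364 from edgeR). The replicates of each group lay close together.

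Of 17 tested genes of the IGF and insulin pathway, 4 were higher and 0 lower in the lens (median 0.33), and 7 and 1 with the replicate block. For this and the lists in this paragraph, the shares over all lens genes tested were 8.38% higher and 3.88% lower. *Igf1*, the postnatal growth factor, had 4.26, 12.8 and 0.883 in Ctrl and 156, 103 and 112 in *Qk*-iCKO lenses (4.34, adjusted p = 0.00472). The binding proteins *Igfbp3* (2.22 ± 0.498 to 74.9 ± 65.9, 4.99, adjusted p = 0.00823) and *Igfbp4* (27.2 ± 11.7 to 563 ± 462, SD, n = 3 each, 4.37, adjusted p = 0.0310, edgeR throughout) rose with wide spread among the deleted lenses. For *Igfbp4* the 3 deleted lenses had 725, 923 and 42.9. Of 5 tested CDK inhibitor genes outside the members, *Cdkn1a* (p21; 2.87 ± 0.292 to 70.9 ± 39.4, SD, n = 3 each, adjusted p = 0.00288) and *Cdkn2b* (p15; 5.12 ± 1.37 to 25.0 ± 8.14, SD, n = 3 each, adjusted p = 0.0123, both edgeR) were higher and 0 were lower, the opposite direction to *Cdkn1c*. Of 15 genes for keeping imprints and silencing, *Tet2*, a DNA demethylase, was called (0.63, adjusted p = 0.0389 from edgeR), with 0 called lower. With the replicate block *Tet2* was not called.

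Markers of other cells differed between the same lens libraries. Of the leukocyte and macrophage list all 7 tested genes of 8 were called higher, and the summed normalized count was 24.5 to 51.2 in Ctrl and 1318 to 1845 in *Qk*-iCKO lenses. Fibroblast and mesenchyme markers (2 of 6 tested called higher) summed to 846 to 1070 and 2006 to 3073, and endothelial markers (3 of 6) to 73.6 to 129 and 286 to 478. Ciliary body, iris and pigment cell markers, with 0 of 5 called, summed to 506, 551 and 57.4 in Ctrl and 6332, 6327 and 295 in *Qk*-iCKO lenses. The third library was the lowest of its group in that sum, and it was also the lowest of its group for *Mest*, *Dio3* and *Igfbp4*. No marker of these lists was at 0 in all 6 lens libraries. Neural stem cell and glial markers, with 1 of 5 called higher, summed to 553 to 715 and 752 to 1177. Retinal markers (25.6 to 7217 and 177 to 1079), red blood cell markers (16.8 to 38.4 and 15.6 to 81.3), pericyte and smooth muscle markers (756 to 1304 and 662 to 1639) and neuronal markers (235 to 515 and 220 to 324) overlapped, with 1 pericyte marker called. The lens markers held 1 called lower among 14 tested and 0 higher, with a median log2 fold change of −0.36. Their sum was 2734210 to 2984270 in Ctrl and 1504590 to 2485080 in *Qk*-iCKO lenses, without overlap and lowest in *Qk*-iCKO lens 1. The part of these cells in the changes of *Meg3*, *Plagl1*, *Cdkn1c* and the lists was not tested.

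**Figure D4:**
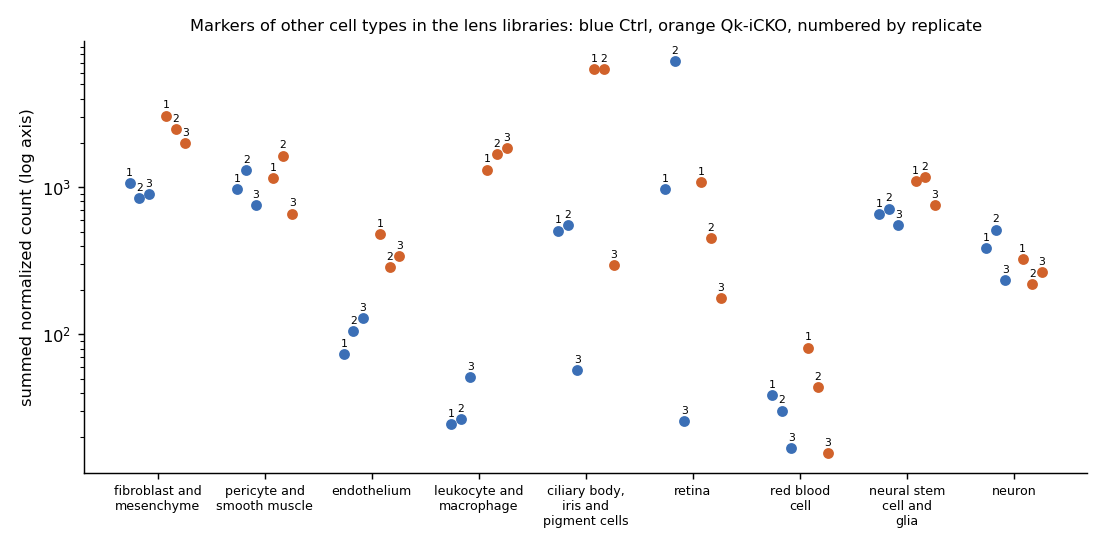
Summed normalized count (log axis) of marker lists of other cell types in each lens library, numbered by replicate; blue is Ctrl and orange *Qk*-iCKO. The leukocyte and macrophage sums lie at 24.5 to 51.2 in Ctrl and at 1318 to 1845 in *Qk*-iCKO lenses, and library 3 of each group is low in the ciliary body, iris and pigment list.

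In the NLPCs, 1 of the 7 tested members was called, *Mest*, which was higher in the libraries labelled *Qk*-/-. Of the 20371 genes tested, 4.74% were called higher and 5.96% lower, and the median log2 fold change of the 7 was 0.061, beside 0.040 over all genes. *Mest*, on chromosome 6 from 30723547 to 30748465 of GRCm38, had normalized counts of 2564, 2273 and 2710 in WT and 3607, 3346 and 3393 in the libraries labelled *Qk*-/-. The groups did not overlap, and the change was 0.45 (SE 0.10, adjusted p = 0.0262 from edgeR), or 1.37 times. The adjusted p was under 0.05 in 1 of the 6 fits that left out a library, that without labelled *Qk*-/- library 2, and reached 0.138 in the others. The log2 ratio of *Mest* to *Copg2*, the neighbour that shares 912 bases with it on the opposite strand, was −0.10, −0.31 and −0.0017 in WT and 0.54, 0.70 and 0.41 in the libraries labelled *Qk*-/- (exact permutation test, two-sided, p = 0.10, the smallest possible). The strand setting of the counting was not given in the sources used here, so reads in the shared bases may belong to either gene.

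*Peg10*, *Plagl1* and *Ndn* had steady counts in the NLPCs. *Peg10* had 4999, 4330 and 5098 in WT and 4593, 3628 and 3642 in the libraries labelled *Qk*-/- (−0.28, SE 0.12, adjusted p = 0.189). *Plagl1* had 483, 435 and 391 against 479, 505 and 413 (0.093, SE 0.16, adjusted p = 0.747) and *Ndn* 130, 176 and 214 against 188, 151 and 203 (0.061, SE 0.28, adjusted p = 0.911, edgeR throughout). In all 3 genes a library of one group lay within the range of the other.

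The other tested members had few counts in the NLPCs, and single libraries set their means. *Meg3* had 3.94, 84.2 and 4.71 against 65.8, 249 and 19.1 (1.86, SE 1.31, adjusted p = 0.402). *H19* had 5.52, 48.5 and 59.7 against 14.5, 92.2 and 8.19 (−0.0081, SE 1.11, adjusted p = 0.997), and *Grb10* 41.8, 140.3 and 84.0 against 30.0, 99.5 and 30.9 (−0.74, SE 0.66, adjusted p = 0.515, edgeR throughout). *Rian* was at 8.86 ± 7.71 in WT and 57.1 ± 73.7 in the libraries labelled *Qk*-/- (SD, n = 3 each; adjusted p = 0.282 from edgeR). Libraries labelled WT 2 and *Qk*-/- 2, the shallowest of their groups, had the highest *Meg3* value of each. The change of *Meg3* was 4.61 without WT 2 and 0.51 without labelled *Qk*-/- 2 (adjusted p = 0.105 and 0.846), and that of *Grb10* was −0.27 and −1.52 (adjusted p = 0.877 and 0.0781, edgeR throughout). *Igf2* (0, 2.55 and 0 against 20.3, 59.0 and 8.19), *Dlk1* (0.789, 11.5 and 8.64 against 7.74, 75.6 and 0) and *Cdkn1c* (3.16, 0 and 0 against 8.71, 0 and 14.6) fell below the filter. *Igf2* was higher in all 3 libraries labelled *Qk*-/- than in any WT library, and DESeq2, which did not use that filter, called it (log2 fold change 5.34, adjusted p = 0.0141), while edgeR with every gene of at least 1 count gave an adjusted p of 0.114. The NLPC table held *Gm49394*, which overlaps 16048 bases of *Igf2* on the same strand and has no row in the lens table, so reads of *Igf2* could be split there and its value is uncertain.

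Of 21 tested imprinted neighbours, the libraries labelled *Qk*-/- had 0 higher and 2 lower (median −0.22), both in the region of *Peg10*. For this and the next list, the shares over all NLPC genes tested were 4.74% higher and 5.96% lower. *Pon2*, a paraoxonase, went from 9356 ± 260 to 5966 ± 221 (−0.65, adjusted p = 0.00202) and *Sgce*, a sarcoglycan read from the start shared with *Peg10*, from 1861 ± 17.1 to 1196 ± 16.0 (SD, n = 3 each; −0.64, adjusted p = 0.00601, both edgeR). The log2 ratio of *Peg10* to *Sgce* was 1.37 ± 0.14 in WT and 1.72 ± 0.20 in the libraries labelled *Qk*-/- without overlap (exact permutation test, p = 0.10). *Grb10* to *Ddc* differed by −2.95 with the 0.5 added to each count and −2.64 with 2, on *Ddc* counts of 2.37 to 77.4. Among 24 other imprinted genes 3 were higher and 2 lower. *Igf2r* (4253 ± 217 to 7110 ± 150, 0.74, adjusted p = 0.00141) and *Airn*, its antisense RNA (552 ± 117 to 1542 ± 146, SD, n = 3 each, 1.48, adjusted p = 0.00186), were both higher, *Peg13* was higher (0.87, adjusted p = 0.00697), and *Gatm* was lower (−1.70, adjusted p = 0.000331, edgeR throughout).

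Of 19 tested genes of the IGF and insulin pathway in the NLPCs, 5 were higher and 3 lower, with a median of 0.70. For this and the lists in this paragraph, the shares over all NLPC genes tested were 4.74% higher and 5.96% lower. *Igfbp3* (0.93, adjusted p = 0.00867) and *Irs1*, the receptor substrate (0.70, adjusted p = 0.00945), were among the higher and *Igf2bp3*, which binds *Igf2* mRNA, among the lower (−0.90, adjusted p = 0.00583, edgeR throughout). Of 17 imprint and silencing genes 0 were higher and 3 lower. They were *Ezh2*, the Polycomb methyltransferase (−0.47, adjusted p = 0.0118), *Zfp57*, which protects methylated imprints (1073 ± 214 to 590.4 ± 21.0, SD, n = 3 each, −0.86, adjusted p = 0.0147), and *Tet2* (−0.35, adjusted p = 0.0449, edgeR throughout). Of 6 CDK inhibitors 1 was lower, *Cdkn2b* (−1.47, adjusted p = 0.00775 from edgeR). Neural stem cell and glial markers (1 of 8 called higher and 3 lower) summed to 290142 to 315215 in WT and 189630 to 219184 in the libraries labelled *Qk*-/-. Fibroblast and mesenchyme markers (1 of 6 lower) summed to 5068 to 5457 and 2805 to 3076. The median log2 fold change of these 6 was 1.39, on the opposite side to their sum, so the list did not fall together. Pericyte and smooth muscle markers (2 of 5 lower) summed to 3297 to 4086 and 2068 to 2552, and neuronal markers to 67784 to 71729 and 84191 to 91259, with 3 of 6 called higher. Lens markers summed to 12052 to 12543 and 11745 to 15082, *Birc7* was at 0 throughout, and crystallins took 0.00156 to 0.00661% of the counts. The part of these cells in the NLPC results was not tested.

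The question whether a member changed differently in lens and NLPCs was put to both mouse tables together, with 16675 genes tested and 8.53% called. *Plagl1* (NLPC minus lens −2.68, SE 0.53, adjusted p = 0.00807) and *Peg10* (−1.74, SE 0.41, adjusted p = 0.0208) were called, with a higher value of the change in the lens. *Cdkn1c* was called as well (3.78, SE 0.98, adjusted p = 0.0330, edgeR throughout), but on NLPC counts of 0 to 14.6, so that its size there is not a measure of a fold. The difference for *Meg3* was −0.61 (SE 1.33, adjusted p = 0.849), and that for *Mest* 0.79 (SE 0.62, adjusted p = 0.485). The 2 tables could differ in the counting program, and the part of that in these differences was not tested. Those of *H19*, *Grb10* and *Ndn* had adjusted p-values from 0.207 to 0.719, and *Igf2*, with an uncertain NLPC value, had 0.0524. With the replicate block, 5 members were called, adding *Grb10* (adjusted p = 0.0419) and *Igf2* (adjusted p = 0.00742, edgeR throughout).

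In HLE-B3 cells, *MEST* was higher and *MEG3* and *PEG10* were lower in *QKI* KO than in WT cells, 3 calls among the 6 members tested. Of the 19049 genes tested, 17% were called higher and 16.3% lower, beside 1 and 2 of the 6, and the median log2 fold change of the 6 was −0.085, beside −0.020 over all genes. *MEST*, on chromosome 7 of GRCh37 from 130126012 to 130146306, had normalized counts of 5258, 4489 and 5409 in WT and 12785, 13051 and 13112 in *QKI* KO cells. The KO libraries lay far above all WT libraries, 2.57 times in the means (1.36, SE 0.069, adjusted p = 2.80e-10 from edgeR). The 50 tested genes nearest to it on the chromosome had a median change of 0.059. The log2 ratio of *MEST* to *COPG2* was 3.45 ± 0.41 in WT and 4.64 ± 0.14 in KO cells (SD, n = 3 each; exact permutation test, p = 0.10, the smallest possible).

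*PEG10*, on chromosome 7 from 94285637 to 94299007, had 8607, 8465 and 9013 in WT and 6972, 7316 and 7015 in *QKI* KO cells (−0.29, SE 0.058, adjusted p = 0.000781), with a median of 0.15 over its 50 nearest genes. *MEG3*, on chromosome 14 from 101245747 to 101327368, had 13291, 14459 and 14826 in WT and 11878, 13254 and 11814 in KO cells (−0.20, SE 0.063, adjusted p = 0.0191, both edgeR), with a median of −0.079 over its 50 nearest genes. Neither overlapped between the groups, though WT 1 and KO 2 of *MEG3* were close. Without any one of WT 2, WT 3, KO 1 and KO 3 the adjusted p of *MEG3* was 0.0776 to 0.138. Both changes were small beside that of *MEST*. *MIR493HG* shares 24763 bases with *MEG3* on the same strand and had raw counts of 315, 256 and 340 in WT and 231, 325 and 254 in KO cells. Reads could be split there, and the part of that in the *MEG3* value was not tested. The log2 ratio of *PEG10* to *SGCE* was 2.53 ± 0.15 in WT and 2.18 ± 0.09 in KO cells without overlap (SD, n = 3 each; exact permutation test, p = 0.10).

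The other tested members of HLE-B3 cells were not called. *H19* had 881, 1023 and 774 in WT and 1024, 1074 and 1029 in *QKI* KO cells (0.22, SE 0.11, adjusted p = 0.150). Its highest WT value lay just below its lowest KO value, and without WT 2 its adjusted p was 0.0440. *GRB10* had 5180, 6252 and 6370 against 5377, 5689 and 4755 (−0.17, SE 0.083, adjusted p = 0.137), and without WT 1 its adjusted p was 0.0307. *PLAGL1* had 1724, 1875 and 2136 against 1844, 1949 and 1940 (adjusted p = 1.00, edgeR throughout), the means being 1912 and 1911. *IGF2*, *DLK1* and *NDN* had 0 or 1 raw count in each library, and *CDKN1C* had 29.8, 1.01 and 7.19 against 1.01, 0 and 7.04, below the filter. *IGF2* shares 25854 bases with *INS-IGF2* on the same strand, itself listed at 0.

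In HLE-B3 cells the lists were taken over from mouse symbols, and whether each human gene is imprinted was not examined. For every list of this paragraph, the shares over all HLE-B3 genes tested were 17% higher and 16.3% lower. Of 17 tested neighbours of the members 2 were higher and 3 lower. *PON2* (0.56, adjusted p = 1.01e-05) and *PPP1R9A*, a neurabin (1.00, adjusted p = 0.0116), both near *PEG10*, were higher, and *BEGAIN* (45.5 ± 22.4 to 1.68 ± 2.09, adjusted p = 0.000647) and *KLF14* (33.5 ± 6.02 to 4.14 ± 3.59, SD, n = 3 each, adjusted p = 0.0151, edgeR throughout) were lower. Among 16 tested genes taken over from the list of other imprinted genes, 4 were higher and 3 lower. First were *SLC22A3*, an organic cation transporter (1891 ± 34.5 to 138 ± 15.4, SD, n = 3 each; −3.77), *SLC38A4* (2.02), *GNAS* (0.34) and *TFPI2* (0.33). Of 18 IGF and insulin genes 7 were higher and 5 lower, with *IGFBP4* (3904 ± 201 to 16504 ± 539, SD, n = 3 each; 2.08), *IGFBP3* (1.43), *IGFBP7* (1.03) and *IRS1* (0.95) first. *IGF2R* was lower (−0.42, adjusted p = 0.000640 from edgeR), where the mouse gene was higher in lens and NLPCs. The difference between species was not tested. Of 16 imprint and silencing genes 3 were higher and 8 lower, with *SUZ12* (0.45), *EED* (0.52) and *TET2* (0.25) higher and *TET3* (−0.45) lower among the first. Of 6 CDK inhibitors *CDKN2B*, *CDKN2A* and *CDKN2D* were higher (0.21, 0.26 and 0.65) and *CDKN1A* was lower (−0.81, adjusted p = 1.66e-07 from edgeR). Several marker sums separated the same libraries. Fibroblast and mesenchyme markers (2 of 8 called higher and 4 lower) summed to 319115 to 327813 in WT and 160840 to 183541 in KO cells. Neural stem cell and glial markers (2 of 4 lower) summed to 9391 to 10168 and 4787 to 5143, neuronal markers (4 of 4 lower) to 2502 to 2787 and 1259 to 1572, and leukocyte and macrophage markers (1 of 2 lower) to 223 to 269 and 126 to 148. Higher sums in KO cells were those of pericyte and smooth muscle markers (31979 to 34666 and 37180 to 39782, with 1 of 7 higher and 3 lower) and of lens markers (46090 to 54078 and 73915 to 85138, with 1 of 7 higher and 4 lower), and the lens marker *CRYAA* was at 0 in all 6 libraries. The part of these genes in the HLE-B3 results was not tested.

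Genes whose pattern over the 6 libraries of a system was most like that of *H19* were *Mkrn1*, *Ube2j1* and *Cnot8* in the lens (Pearson r of 0.989, 0.985 and 0.981 on log2 values), *Mogs*, *Gm47356* and *Trdmt1* among NLPCs (0.994, 0.992 and 0.990) and *AC016739.1*, *VANGL1* and *RN7SKP203* for HLE-B3 (0.988, 0.987 and 0.985). Those most like *Igf2* in the lens were *Gm2830*, *Arrdc4* and *Cript* (0.999, 0.987 and 0.987). These are descriptions over 6 libraries that share their scaling, picked as the highest of 12200, 20370 and 19048 genes compared.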

How the data were processed

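RNA-seq of 18 libraries (3 per group in 6 groups) was analysed. The deposited values were whole-number counts per gene, which the authors made from TruSeq stranded libraries with STAR 2.6.1b in two-pass mode on mm10 or hg19 and HTSeq 0.11.0. The processing notes also list HISAT2 2.0.4 and featureCounts without a role, and the strand setting and annotation are not given in the sources used here.

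From the counts, edgeR 4.0.16 (R 4.3.3, limma 3.58.1) gave TMM factors, the filterByExpr filter (minimum count 10, minimum total 15) and the quasi-likelihood test within each table, adjusted over all genes tested by the Benjamini-Hochberg method, with 0.05 as the threshold. The same test on both mouse tables together gave the difference between NLPCs and lens. Log2 ratios of neighbouring genes used a pseudocount of 0.5 and a two-sided exact permutation test, which cannot go below p = 0.10 with 3 against 3. Scripts were tested on simulated data. In the lens, same-numbered libraries deviated together (correlations 0.232, 0.147 and 0.516), so they may be paired, and the replicate block is given as an alternative. Lens p-values are from the fit without the block unless the block is named. Alternatives were DESeq2 1.42.0, RLE factors, total counts alone, 2 other filters, a replicate block, crystallin-free TMM factors in the lens, a pseudocount of 2 and leaving out each library.

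Total counts ran from 10319320 to 81384471 per library. The precision of a value depends on these counts and on the spread between libraries, whose common coefficient of variation was 0.260 for lens, 0.411 for NLPCs and 0.168 for HLE-B3. Named genes were all 10 members, up to 4 called genes per list and system by adjusted p, marker sums and the 3 genes most correlated with *H19* and *Igf2*. *Dio3*, *Rtl1*, *Kcnq1ot1*, *Ddc*, *IGF2R* and *Rian* in the NLPCs were named for context after their values were seen. Members, lists and tests were chosen with earlier results of these data known. Promoter and microRNA sequences are from RefSeq (GRCm38.p6), with coordinates counted from 1.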

Additional observations from a re-analysis of the deposited data

Results flagged for a closer look

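In the joint fit of lens and NLPCs, the effect of deletion differed between the systems for 3 members. The log2 fold change in the NLPCs minus that in the lens was −1.74 for *Peg10*, −2.68 for *Plagl1* and 3.78 for *Cdkn1c*, and the last rests on NLPC counts near the floor. The value for *Plagl1* kept an adjusted p under 0.05 with any one library left out (0.0020 to 0.0270), that for *Peg10* lost it without any Ctrl lens or without WT NLPC library 3, and that for *Cdkn1c* lost it in 9 of 12 such fits (edgeR).

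*Meg3* and *Peg10* had values on opposite sides in mouse lens and HLE-B3 cells. *Meg3* was at 2.66 in the lens and −0.20 in HLE-B3 cells, and *Peg10* at 1.52 and −0.29, with every deletion library on the same side of all its controls. The difference between systems was not tested, and the lens value of *Peg10* did not pass the threshold with the settings of the main results.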

How the results depend on the processing

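With every gene of at least 1 count kept, called members went from 3 to 5 in the lens and from 3 to 5 in the joint fit, called IGF genes in the lens to 7, called neighbours in the NLPCs to 5, and *Qk* in the NLPCs was at 0.39 (adjusted p = 0.203 from edgeR). With at least 10 counts required in every library, the lens neighbours and the other imprinted genes gave 3 calls each, the IGF genes 2 and the CDK inhibitors 0, the HLE-B3 neighbours 3, and the joint fit 1 member, because fewer genes were tested. Scaling by total counts gave 3 lens neighbours and 0 maintenance genes, and turned *Mest* in the lens to 0.12. DESeq2 called 8 IGF and 0 maintenance genes in the lens, and in the NLPCs 2 members (*Mest* and *Igf2*), 5 neighbours, 10 other imprinted genes and 5 maintenance genes. The replicate block called 8 IGF genes in the lens and 5 members in the joint fit. In the lens it also called 6 neighbours (5 higher and 1 lower). Of the other imprinted genes it called 4 higher and 1 lower, and 4 of these were called without the block. It called 1 maintenance gene, which was not *Tet2*. Beside *H19*, no member's call within a system changed with the block. In the NLPCs same-numbered libraries had correlations of 0.097, 0.306 and 0.124, against means of 0.0058, −0.229 and −0.024 with other numbers. Those of HLE-B3 cells were 0.055, 0.050 and −0.039. Whether the libraries of these systems are paired is not known, and the block called 1 and 3 members there. With the block, *Meg3* in the NLPCs was at 2.43 (adjusted p = 0.0626 from edgeR).

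Values near 0 changed sign: *H19* in the NLPCs was at 0.021 with RLE factors, 0.073 with total counts and 0.0074 with DESeq2. *PLAGL1* in HLE-B3 cells was at 0.0054 with RLE factors, 0.0019 with the 1-count filter, 0.0069 with DESeq2 and 0.0045 with the replicate block. Leaving out each library gave −0.55 to 0.24 for *Mest* in the lens, −1.72 to 0.47 for *H19* and −0.12 to 0.23 for *Ndn* in the NLPCs, −0.052 to 0.094 for *PLAGL1*, and −1.92 to 1.99 for the difference in *Meg3*.

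Leaving out each library gave 1 to 4 called members in the lens (1 without Ctrl 1 or Ctrl 2), 0 to 1 in the NLPCs, and 1 to 4 in the joint fit (1 without any Ctrl lens or WT NLPC 3). In the lens it gave 2 to 5 neighbours and 2 to 5 other imprinted genes (2 without any Ctrl lens, and 3 of the latter without *Qk*-iCKO 3), 0 to 1 maintenance genes and 1 to 2 CDK inhibitors (fewer without any Ctrl lens, and 0 maintenance genes without *Qk*-iCKO 2 or 3). In the NLPCs it gave 2 to 6 neighbours, 3 to 9 other imprinted genes (6 and 9 without labelled *Qk*-/- 2, 3 of the latter without WT 3), 2 to 10 IGF genes (5 or fewer without any WT library or labelled *Qk*-/- 1), 0 to 4 maintenance genes (0 or 1 without those same libraries) and 0 to 2 CDK inhibitors (0 without WT 1 or 3, 2 without labelled *Qk*-/- 2). *Qk* there was at 0.37 to 0.48. In HLE-B3 cells it gave 3 to 5 neighbours (3 without WT 2 or 3), 7 to 11 maintenance genes (7 without KO 1 or 3) and 2 to 4 CDK inhibitors (2 without WT 3 or KO 3). Causes were not tested. *Dlk1*, *Igf2* and *Cdkn1c* had too few counts in the NLPCs for the filter.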
